A study of Sus scrofa with 15 samples.

Results

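The major histocompatibility region of the pig lies on chromosome 7 and was followed here in sow mammary gland through late pregnancy and parturition. Its members are the rows of the count tables that lie between 22100000 and 30500000 bp of chromosome 7 in the Sscrofa10.2 assembly and that reach at least 1 CPM (the count scaled to the library total) in at least 3 of 15 libraries. Of 330 rows in that interval 124 are members, 206 fell below the minimum and 138 of those had no count in any library. The members span 7.64 Mb, 97 of them reached 1 CPM in all 15 libraries, and 0 passed the minimum through a single time point alone. Over the whole genome 13503 of 25322 rows passed the same filter. A symbol was paired with 67 members in the part of the study's gene list held here, and the other 57 are given by Ensembl gene ID or position only.

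Mammary tissue was taken by biopsy from 3 sows of the second parity, crosses of Danish Landrace and Yorkshire chosen for a high colostrum yield, at 14, 10, 6 and 2 d prepartum and 1 d postpartum, which gives 3 libraries per time point and no untreated control. The sample labels give the time point and not the sow. The sow was taken from the study's alignment summary and the sows are called sow 1, 2 and 3. Each sow received another diet (alfalfa meal with trioctanoate, sugar beet pulp with palm fatty acid distillate, or alfalfa meal with soybean oil). By the paper's approximate dates the diets began in late gestation, after the samples of 14 d prepartum, and ran on into lactation. In samples taken on the diets, a difference between sows cannot be told apart from one between diets. A change from 14 d prepartum to those samples cannot be told apart from the start of the diets. The tissue is a mixture of cells, and fewer cells of a type cannot be told apart from less RNA per cell.

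Total counts ranged from 10782343 to 19952918 per library, and the libraries of 1 d postpartum held 10782343 to 15744454. The 7 epithelial markers summed to between 608 and 1379 CPM and the 6 stromal markers (collagens, lumican, periostin) to between 1843 and 6817 CPM over all libraries, and 0 markers of either list were at 0 throughout. All 3 libraries of 14 d prepartum had a lower RNA integrity number in the study's summary than all libraries of 2 d prepartum and 1 d postpartum. Time and RNA integrity therefore cannot be told apart in these comparisons, and with the RNA integrity number as a covariate 0 members and 76 of 13503 genes (0.563%) were called in +1vs-14. With that covariate the log2 fold change was -2.69 for ZBTB12 (-2.29 without it), -2.44 for TCF19 (-2.11), 1.53 for SLC39A7 (1.40) and -0.46 for SLA-DRA (-0.42), while that of ENSSSCG00000030320 went from 7.09 to 3.48 and that of TRIM39 from 0.48 to 0.24.

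The region is known for the genes whose products show peptides to T cells. Class I molecules, in the pig encoded by SLA-1 and its close copies, present peptides from inside the cell on nearly every cell type, while class II molecules (SLA-DR and SLA-DQ, loaded with the help of SLA-DM and tempered by SLA-DO) present peptides taken up from outside, mostly on dendritic cells, macrophages and B cells. Between these classes lies a stretch of genes of other kinds, among them complement factor B (CFB), lymphotoxin beta (LTB) and many housekeeping genes of transcription, RNA processing and protein quality control. In the mammary gland colostrum and milk carry antibodies and complement to the piglet, and leukocytes of the gland carry class II molecules.

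All levels below are CPM scaled by TMM (trimmed mean of M values), in the order of sow 1, 2 and 3. Changes are log2 fold changes (log2FC) ± their standard error. A member was a differentially expressed gene (DEG) of a time comparison where edgeR, with time as the factor, gave an adjusted p of 0.05 or less both for time as a whole and for that comparison. For members described below, the adjusted p with the sow as a block is given where it changes the call in -2vs-14 or +1vs-14.

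In +1vs-14, 21 of the 124 members were DEG (16.9%), with 10 higher and 11 lower at 1 d postpartum, against 23.7% of all genes tested (13.3% higher and 10.4% lower). With the sow as a block 35 members were DEG, 17 higher and 18 lower, against 30.1% of all genes (16.3% higher and 13.8% lower). Scaled to library totals without TMM the split was 5 higher and 50 lower, in a scaling that moved the median log2FC of all genes from 0.02 to -0.64. In -2vs-14, 5 members were DEG (4 higher and 1 lower, 4.03% against 2.85% of all genes, 1.96% higher and 0.896% lower), and all 5 kept that direction as DEG of +1vs-14. The sow block gave 6 higher and 8 lower members in -2vs-14 against 8.67% of all genes (5.07% higher and 3.61% lower), and library totals gave 2 higher and 19 lower. The median log2FC of the members was -0.06 in +1vs-14 and -0.10 in -2vs-14, beside 0.02 and -0.01 over all genes.

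The count in -2vs-14 depended on single libraries. It was 2, 0 and 1 without replicate 1, 4 or 7 of 14 d prepartum (0.948%, 0.274% and 0.578% of all genes), 3 without replicate 16 of 10 d (1.94%), 0 without replicate 28 or 31 of 2 d (0.689% and 0.452%), 8 without replicate 34 of 2 d (4.24%), and 12 without replicate 37 of 1 d postpartum (9.74%). In +1vs-14 the count ran from 16 to 29 with 1 library left out, while the share over all genes ran from 18.7% to 28.5%.

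In -10vs-14 and -6vs-14 edgeR called 0 members, beside 0.0% of all genes in both. At an unadjusted p of 0.05 or less there were 4 and 9 members, against 2.19% and 8.81% of all genes. The sow block (0.0% and 0.467% of all genes), DESeq2 and limma-voom with a random sow effect called 0 members in both as well, with 0.904% and 0.17% of all genes in -6vs-14. In +1vs-2, 13 members were DEG (7 higher and 6 lower, 10.5% against 15.3% of all genes, 8.01% higher and 7.24% lower), 20 with the sow as a block (20.1% of all genes) and 20 without replicate 37 of 1 d postpartum. Of the 13, 11 were also DEG of +1vs-14. The other 2, looked up after their values were seen, were an unnamed member and FKBPL, an immunophilin-like protein (14.6 ± 1.56 CPM at 2 d prepartum against 8.904 ± 1.54 CPM, SD and n = 3, log2FC -0.70 ± 0.17, adjusted p = 0.0128).

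**Figure D1:**
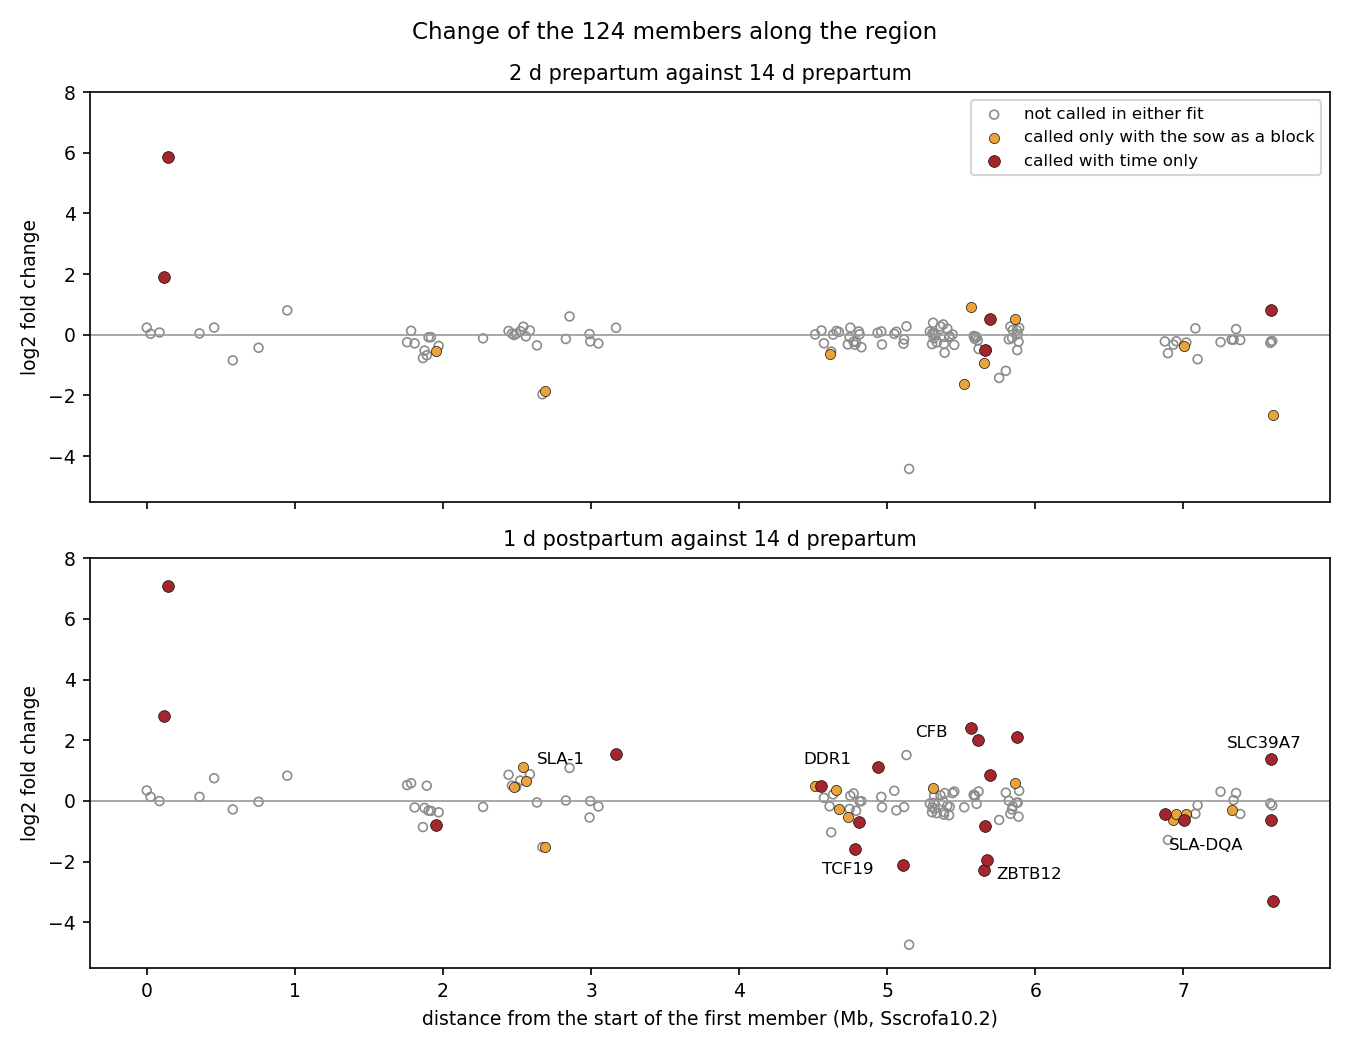
Log2 fold change of each of the 124 members (vertical axis) against its distance in Mb from the start of the first member (horizontal axis) for 2 d prepartum (top) and 1 d postpartum (bottom), each against 14 d prepartum. Red points are DEG with time only, orange points DEG only with the sow as a block, and open points neither. The 5 DEG of 2 d prepartum stay on their side of 0 at 1 d postpartum, when 21 members are red.

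Of the 6 named class II genes 5 had lower levels after parturition than 14 d before it in every sow, and SLA-DOB, at a very low level, did not. SLA-DRA, the alpha chain of the DR molecule (chromosome 7, 29036552 to 29042147), stood at 329, 263 and 285 CPM at 14 d prepartum and at 235, 207 and 212 CPM at 1 d postpartum. The alpha chain of DQ, SLA-DQA (29164956 to 29170803), went from 292, 221 and 257 CPM to 167, 159.5 and 174 CPM. The libraries of the 2 time points did not overlap for either gene. Both were DEG (log2FC -0.42 ± 0.10, adjusted p = 0.00579 for SLA-DRA, and log2FC -0.62 ± 0.11, adjusted p = 0.00118 for SLA-DQA), and both calls held with each of the 15 libraries left out in turn.

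The beta chains moved by similar amounts and were DEG only with the sow as a block. SLA-DRB1 (29113232 to 29125494) was at 60.03, 67.1 and 54.9 CPM and then at 41.2, 52.4 and 41.1 CPM (log2FC -0.43 ± 0.15, adjusted p = 0.0408, with an overall time test of 0.07). SLA-DQB1 (29180891 to 29188688) was at 89.97, 70.03 and 87.7 CPM and then at 64.5, 52.6 and 67.6 CPM (log2FC -0.42 ± 0.18, adjusted p = 0.0871). For both genes the highest library of 1 d postpartum lay below the lowest of 14 d prepartum, and the sow block gave an adjusted p of 0.00349 and 0.00389. SLA-DMB, the beta chain of the DM peptide exchanger (29485890 to 29491702), was at 27.8, 24.8 and 23.9 CPM and then at 20.1, 20.02 and 22.6 CPM (log2FC -0.29 ± 0.11, adjusted p = 0.0636, and 0.0426 with the sow as a block). SLA-DOB was at 0.183, 0.293 and 0.921 CPM and then at 0.5102, 0.198 and 0.365 CPM, higher in sow 1 and lower in the other sows (log2FC -0.42 ± 1.13, adjusted p = 0.805), and was no DEG in either fit. Thus 2 of 6 class II genes were lower DEG with time only, against 10.4% of all genes, and 5 of 6 with the sow as a block, against 13.8% of all genes. The median log2FC of the 5 without SLA-DOB was -0.42 beside 0.02 over all genes.

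The class II course was not a steady fall from the first sample. At 10 d prepartum SLA-DRA stood at 361, 325 and 363 CPM and SLA-DQA at 296, 268 and 317 CPM, each above its own 14 d value in all 3 sows, though neither difference passed the test (log2FCs of 0.26 and 0.20). The sum of these 5 genes, SLA-DOB left out, was 718 ± 76.8 CPM (SD, n = 3) 14 d before parturition, and after that 841 ± 66.7 (10 d), 659 ± 41.4 (6 d), 594 ± 16.02 (2 d) and, 1 d postpartum, 513 ± 18.6 CPM. In the -2vs-14 comparison SLA-DQA was a DEG only with the sow as a block (log2FC -0.37 and adjusted p = 0.0884 without it, 0.0217 with it), and the other class II genes were not.

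Per kilobase of exon the alpha chains had the highest levels of the named class II genes. At 14 d prepartum SLA-DRA had 234 CPM per kb, SLA-DQA 194, SLA-DQB1 105, SLA-DRB1 66.1 and SLA-DMB 18.5 CPM per kb. SLA-DOB, the beta chain of the DO modulator, was near the minimum of the filter, with 0.249 CPM per kb at that time. The same order held at 1 d postpartum (175, 126, 78.3, 48.9, 15.1 and 0.191 CPM per kb).

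Markers of leukocytes, which carry class II molecules, were also lower in sum at 1 d postpartum. The summed level of 6 pan-leukocyte genes was 277 to 315 CPM at 14 d prepartum and 212 to 274 CPM at 1 d postpartum. That of 7 myeloid genes was 51.6 to 60.7 CPM and then 42.02 to 45.9 CPM, that of 6 T and NK cell genes 17.3 to 18.8 CPM and then 13.002 to 16.4 CPM, and that of 2 B cell genes 8.33 to 9.21 CPM and then 6.80 to 7.43 CPM. All 4 sums were lower at 1 d postpartum with no overlap between the time points, as were those of the endothelial and stromal markers. From 14 d to 2 d prepartum the mean class II sum fell from 718 to 594 CPM, with 841 CPM at 10 d. At 14, 10, 6 and 2 d the mean was 298, 305, 316 and 296 CPM for pan-leukocyte genes. It was 17.82, 22.5, 20.7 and 17.80 CPM for T and NK cell genes, and 8.89, 12.1, 9.62 and 8.83 CPM for B cell genes. The myeloid sum was at 56.3, 57.4, 52.5 and 44.9 CPM. From 14 d to 2 d the endothelial sum went from 224 to 188 CPM and the stromal sum from 5236 to 3553 CPM. The median log2FC in -2vs-14 was -0.22 for pan-leukocyte and -0.30 for myeloid genes, beside -0.22 for class II. For T and NK cell genes it was -0.10 and for B cell genes 0.0052. In each of the 4 leukocyte lists (of 6, 7, 6 and 2 genes) 1 gene was a lower DEG in +1vs-14 and 0 were higher. They were ARHGDIB (log2FC -0.51), NCF4 (-1.27), LY9 (-0.71) and CD72 (-0.79). Over all genes 10.4% were lower and 13.3% higher. No marker of the 4 lists was at 0 in all libraries, and their part in the class II result was not tested.

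**Figure D2:**
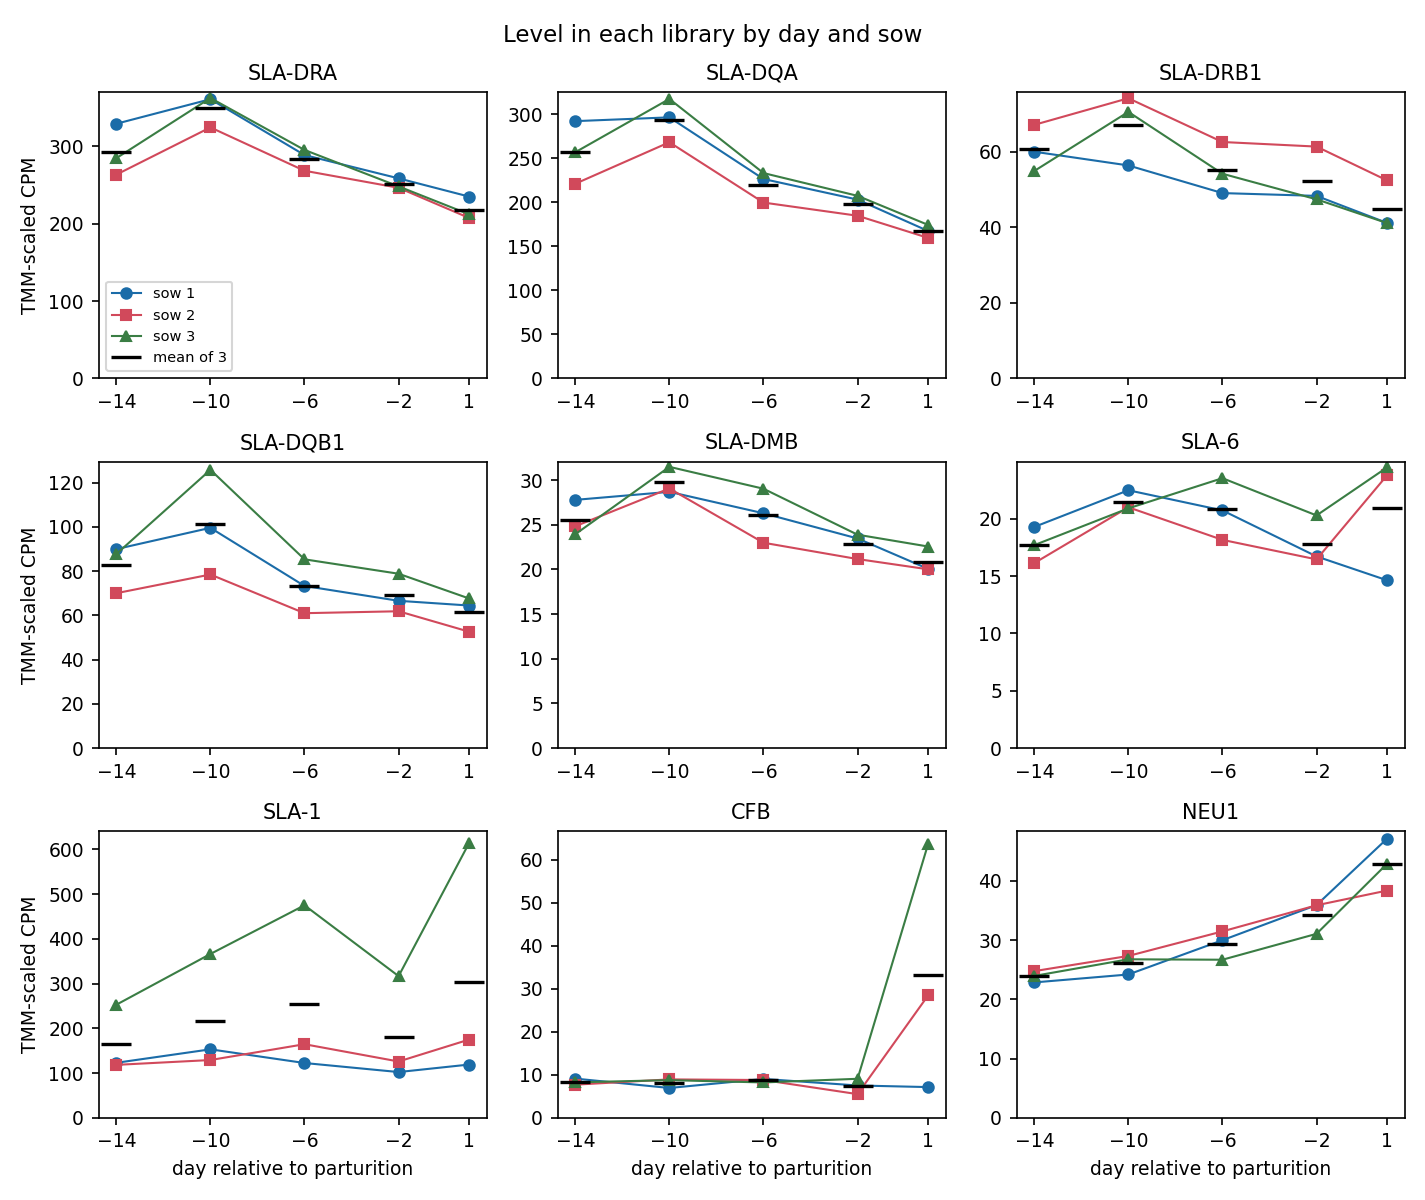
TMM-scaled CPM (vertical axis, from 0) of 9 members in each library by day relative to parturition (horizontal axis), with 1 line per sow and black bars for the mean of 3. The 5 class II genes shown end lower than they began in all sows, SLA-1 is highest in sow 3 at every time point, CFB rises after parturition in sow 2 and sow 3 and not in sow 1, and NEU1 ends higher than it began in all sows.

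Of 7 other genes of antigen processing, which lie outside the region, 4 were higher DEG in +1vs-14 (PDIA3, CTSB, ERP29 and CD83) and 0 were lower, against 13.3% and 10.4% of all genes, with a median log2FC of 0.98 beside 0.02 over all genes. The 7 were chosen with earlier results of these data known, so that their count is a description. PDIA3, a disulfide isomerase of the endoplasmic reticulum that takes part in class I loading, went from 350.3 to 763 CPM (mean of 3, log2FC 1.12, adjusted p = 0.000102), and CD83, a surface protein of activated antigen-presenting cells, from 2.87 to 15.8 CPM (log2FC 2.49, adjusted p = 0.0021). The cysteine protease CTSS, which trims the invariant chain of class II, had a log2FC of 0.12 (adjusted p = 0.485), and CD1D, which presents lipids, one of -0.22 (adjusted p = 0.505). CTSZ, a lysosomal protease, had 0.72 and was a DEG only with the sow as a block (adjusted p = 0.0581 without it, 0.00403 with it).

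Neither named class I gene was a DEG in any comparison, and the level of SLA-1 differed between sows. SLA-1 (24748105 to 24751642) was at 123, 118 and 253 CPM at 14 d prepartum and at 119, 175 and 614 CPM at 1 d postpartum (log2FC 0.88 ± 0.68, adjusted p = 0.348). With the sow as a block SLA-1 had a log2FC of 0.61 (adjusted p = 0.0285) but failed the overall test of time. Its log2 ratio of 1 d postpartum to 14 d prepartum within a sow, from CPM + 1, was -0.05 in sow 1, 0.56 in sow 2 and 1.28 in sow 3. Without replicate 43 of 1 d postpartum, the library of sow 3, the fitted value was -0.17. SLA-6, a non-classical class I gene (27602782 to 27606824), was at 19.3, 16.1 and 17.7 CPM and then at 14.6, 23.8 and 24.5 CPM (log2FC 0.26 ± 0.17, adjusted p = 0.273), and scaled to library totals its log2FC was -0.34. Class I genes are near-identical copies, and reads that fit more than 1 copy are not in these counts, so that the values of single class I rows are uncertain.

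Over all 15 libraries the 5 libraries of sow 3 held 253 to 614 CPM of SLA-1, above the 102 to 153 CPM of sow 1 and the 118 to 175 CPM of sow 2. The sow means were 124, 143 and 405 CPM, and the sows differed (adjusted p = 4.52e-05, edgeR test of sow with time as a block). The 7 unnamed members that precede SLA-1 (24603748 to 24724165) were looked at together after their values were seen, so that the following is a description. Single rows differed between sows in opposite ways, 6 of 7 past the adjusted p of 0.05 in the test over all genes. The row that starts at 24641581 had sow means of 300.3, 222 and 154 CPM, highest in sow 1, and the row at 24704564 had 17.8, 9.01 and 74.3 CPM, highest in sow 3. Summed over the 7 rows, the sow means were 907 ± 130.3, 947 ± 151 and 977 ± 361 CPM (SD, n = 5), a ratio of highest to lowest of 1.08, while that of single rows ran up to 8.24. These means cover unlike courses, since the libraries ran from 759 to 1115, 758 to 1125 and 601 to 1512 CPM. From 14 d prepartum to 1 d postpartum the 7-row sum moved by 0.002, 0.57 and 1.33 on the log2 scale. With SLA-1 included the sum was 1031 ± 148, 1089 ± 176 and 1382 ± 503 CPM, and SLA-1 made up 12.03% of it in sow 1, 13.1% in sow 2 and 29.3% in sow 3.

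The sum of these 8 rows was 908 ± 74.9 CPM (SD, n = 3) 14 d before parturition, followed by 1194 ± 147 (10 d), 1295 ± 287 (6 d), 968 ± 93.3 (2 d) and, 1 d postpartum, 1472 ± 587 CPM. From 14 d prepartum to 1 d postpartum it moved by -0.0039 on the log2 scale in sow 1, 0.57 in sow 2 and 1.32 in sow 3, and all 8 rows had a fitted log2FC above 0, from 0.47 to 1.13. None of the 8 was a DEG with time only, against 23.7% of all genes, and 3 of them were with the sow as a block, against 30.1%. A list of 16 interferon-responsive genes outside the region was chosen with earlier results of these data known, so that its values are a description. It had summed levels of 293, 242 and 246 CPM at 14 d prepartum and 279, 418 and 580 CPM at 1 d postpartum. The list was highest on average at 6 d prepartum, with 497, 415 and 481 CPM. Of those 16 genes 9 were higher DEG in +1vs-14 and 0 lower, against 13.3% and 10.4% of all genes (median log2FC 0.90), among them GBP1 (1.00, adjusted p = 0.000691) and IFIT1 (1.25, adjusted p = 0.00178). Their part in the levels of the 8 rows was not tested.

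**Figure D3:**
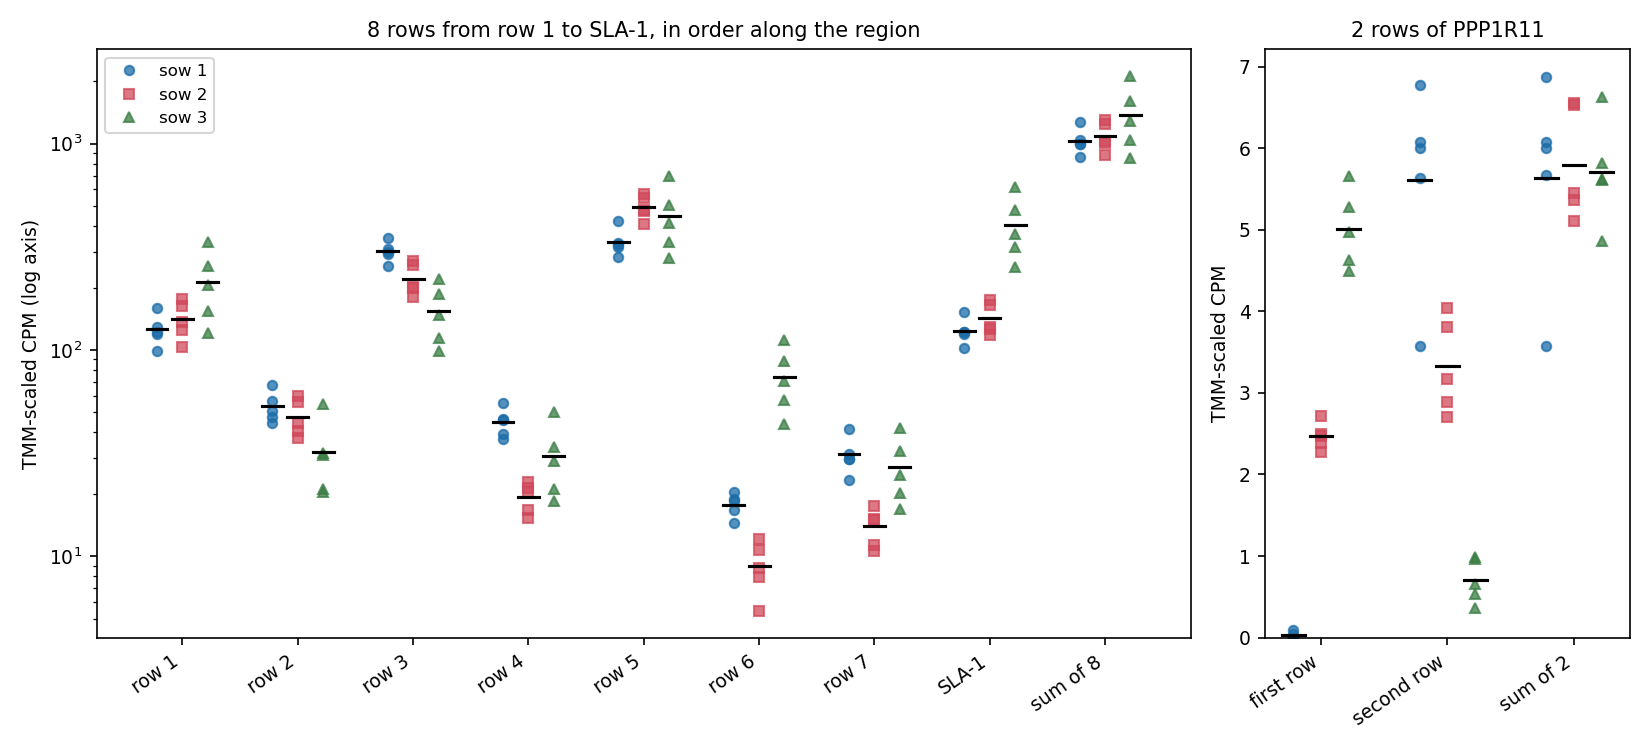
TMM-scaled CPM of the 7 unnamed rows before SLA-1, of SLA-1 and of their sum (left, log axis), and of both PPP1R11 rows and their sum (right), with the 5 libraries of each sow as points and the sow mean as a bar. Single rows differ between sows in opposite directions while the sums lie closer together, and the first PPP1R11 row has almost no reads in sow 1.

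The clearest difference between sows was that of PPP1R11, an inhibitory subunit of protein phosphatase 1, which has 2 rows in this assembly. The first row (24991268 to 24994355) had 0 to 0.0916 CPM in the libraries of sow 1, 2.28 to 2.72 CPM in sow 2 and 4.499 to 5.66 CPM in sow 3. The second (25150916 to 25154081) had 3.57 to 6.78 CPM, 2.71 to 4.05 CPM and 0.369 to 0.984 CPM. The rows were ordered oppositely, and both differed between sows (adjusted p = 6.42e-07 and 4.23e-05). Their sum, taken after these values were seen, was 5.64 ± 1.24, 5.80 ± 0.69 and 5.71 ± 0.63 CPM (SD, n = 5) in sow 1, 2 and 3. Neither row was a DEG in any time comparison.

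In all, 34 of 124 members (27.4%) differed between sows at an adjusted p of 0.05 or less, against 8.46% of all genes tested. One sow stood wholly apart, its 5 libraries all above or all below the other 10, for 8 members (6.45%), against 2.24% of all genes. Of the 34, sow 1 had the highest mean for 18, sow 3 for 13 and sow 2 for 3. The class II genes SLA-DQB1 (sow means 78.8, 64.8 and 89.1 CPM, adjusted p = 0.00697) and SLA-DRB1 (50.995, 63.5 and 53.6 CPM, adjusted p = 0.0326) were among them. SLA-DRA (295, 262 and 281 CPM, adjusted p = 0.258) and SLA-DQA (237, 207 and 238 CPM, adjusted p = 0.129) did not pass. Of further named members, SLA-DOB (sow means 0.2303, 0.232 and 0.952 CPM, adjusted p = 0.00337), LTB, a cytokine of lymphoid tissue (6.46, 3.396 and 5.17 CPM, adjusted p = 0.0372), and TRIM10 (2.41, 1.71 and 3.74 CPM, adjusted p = 0.0129) passed.

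The number of members that differed between sows depended on the libraries. With any 1 of the prepartum libraries left out it lay between 16 (12.9%, without replicate 28 of 2 d) and 23 (18.5%, without replicate 1 of 14 d), against 5.04% to 6.64% of all genes, and without replicate 37 of 1 d postpartum it was 40 (32.3% against 14.8%). Without the 3 libraries of 1 d postpartum it was 45 (36.3% against 17.5%). The share of members was above that of all genes under each of these settings.

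Along the region the DEG of +1vs-14 were spread over most 1 Mb bins, while members that differed between sows were densest around SLA-1. The bin from 24 to 25 Mb, with SLA-1 and the rows before it, held 20 members, of which 12 differed between sows and 1 was a DEG (60% and 5%). The bin from 27 to 28 Mb, with CFB and most other genes between the classes, held 43 members, of which 5 differed between sows and 8 were DEG, 4 higher and 4 lower (11.6% and 18.6%, beside 8.46% and 23.7% of all genes). The bin from 29 to 30 Mb, with the class II genes, held 18 members, of which 7 differed between sows and 5 were DEG (38.9% and 27.8%). Of these DEG 4 were lower, the class II genes SLA-DRA and SLA-DQA and, outside that class, HSD17B8 and the unnamed ENSSSCG00000001473. The bin had the lowest median log2FC of the 8 bins (-0.42). The order of genes in this assembly breaks the usual division into classes, since LTB and NFKBIL1 precede SLA-6, so that bins alone were used.

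**Figure D4:**
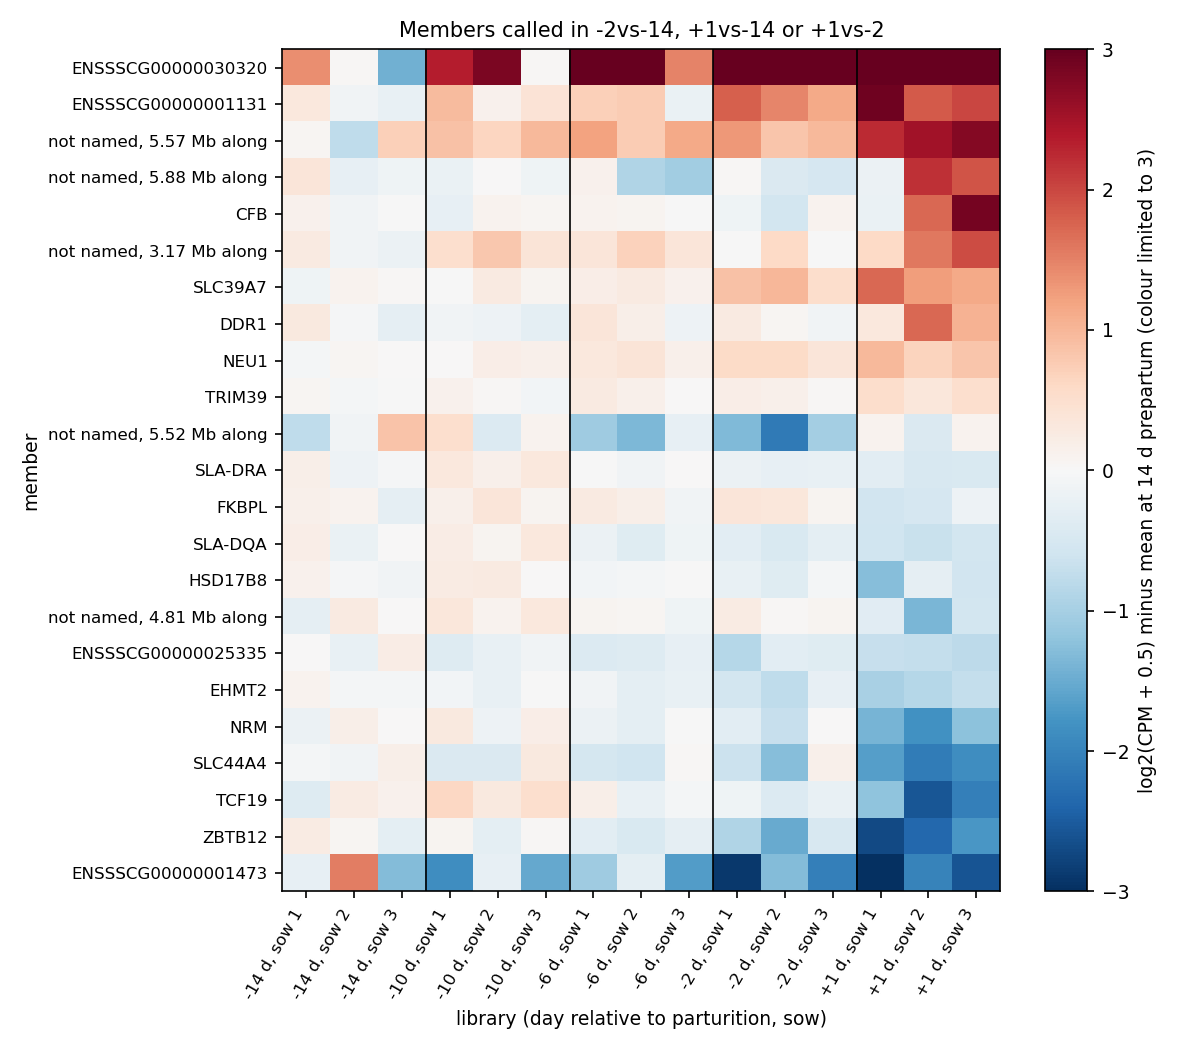
Members that were DEG in -2vs-14, +1vs-14 or +1vs-2, as log2(CPM + 0.5) minus the mean at 14 d prepartum (colour, limited to 3), by library (horizontal axis, ordered by day and sow) and member (vertical axis, ordered by the log2FC of +1vs-14; unnamed members other than those described in the text are given by their distance along the region). Of 23 members CFB shows no rise in sow 1 at 1 d postpartum and DDR1 hardly any, and the fall of ZBTB12, TCF19, NRM and SLC44A4 is present in all 3 sows.

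Of the named members 5 were higher DEG and 8 were lower DEG in +1vs-14. NEU1, the lysosomal sialidase (27853782 to 27858037), rose from 22.8, 24.8 and 23.9 CPM to 35.9, 35.9 and 31.05 CPM at 2 d prepartum and 47.1, 38.4 and 42.9 CPM at 1 d postpartum. Its libraries at both later times lay above all 3 of 14 d prepartum, and it was a DEG in both comparisons (log2FC 0.52 ± 0.11, adjusted p = 0.0234 in -2vs-14, and log2FC 0.84 ± 0.11, adjusted p = 0.000117 in +1vs-14). SLC39A7, a zinc transporter of the endoplasmic reticulum and Golgi (29756225 to 29760618), rose in the same way, from 39.3, 46.2 and 43.8 CPM to 79.7, 86.1 and 62.7 CPM and 142, 104 and 95.2 CPM (log2FC 0.82 ± 0.15, adjusted p = 0.017, and then log2FC 1.40 ± 0.15, adjusted p = 4.56e-05). Its exons overlap those of another gene on the same strand, which could take part of its reads. The -2vs-14 calls of NEU1 and SLC39A7 were each lost in 5 of the 15 fits that left out a library. Without TMM neither gene was a DEG in -2vs-14, and NEU1 had a log2FC of 0.17 in +1vs-14 (adjusted p = 0.346).

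CFB, the serine protease of the alternative complement pathway (27771732 to 27777630), was flat before parturition, between 5.503 and 9.11 CPM in all prepartum libraries, and stood at 7.14, 28.4 and 63.6 CPM at 1 d postpartum. It was a DEG (log2FC 2.01 ± 0.49, adjusted p = 0.00666), yet sow 1 was below and sows 2 and 3 were above all libraries of 14 d prepartum. Without replicate 43 of 1 d postpartum the log2FC was 1.11 and CFB was no DEG. DDR1, a receptor kinase for collagen (27096033 to 27113809), also rose mostly in sow 2 and sow 3, with 499.7, 397 and 337 CPM at 14 d prepartum and 505, 1350.4 and 838 CPM at 1 d postpartum (log2FC 1.13 ± 0.27, adjusted p = 0.0068). All 3 libraries of 1 d postpartum lay above those of 14 d prepartum, sow 1 by little. Without replicate 40 of 1 d postpartum it had a log2FC of 0.71 and was no DEG. The sum of the epithelial markers had the same order of sows as CFB at 1 d postpartum, with 608, 1106 and 1321 CPM, after 1255, 1379 and 1214 CPM at 14 d prepartum, and its part in either result was not tested.

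TRIM39, a ubiquitin ligase of the TRIM family (26716751 to 26731477), had a small increase from 11.4, 10.6 and 10.95 CPM to 15.99, 14.2 and 15.9 CPM (log2FC 0.48 ± 0.11, adjusted p = 0.00659), but without TMM its log2FC was -0.18, and the call was lost in 8 of the 15 fits that left out a library. The other 3 TRIM genes did not rise. TRIM10 was at 5.17, 2.64 and 6.35 CPM and then at 0.6803, 1.49 and 2.41 CPM, lower in every sow and a DEG only with the sow as a block (log2FC -1.53 ± 0.50, adjusted p = 0.0299, and 0.0013 with the block). In -2vs-14 the block made it a DEG as well (log2FC -1.85 ± 0.49, adjusted p = 0.0602, and 0.00235). TRIM15 had 1.16 ± 0.879 CPM (SD, n = 3) at 14 d prepartum and 0.377 ± 0.212 CPM at 1 d postpartum (log2FC -1.52 ± 0.58, adjusted p = 0.0585). TRIM26 was near its starting level at 1 d postpartum, with 66.3 ± 2.29 and 64.1 ± 6.25 CPM (log2FC -0.05 ± 0.09, adjusted p = 0.713). At 2 d prepartum it was at 52.04 ± 1.55 CPM, lower in every sow (log2FC -0.35 ± 0.09, adjusted p = 0.0596). It was no DEG of -2vs-14 in either edgeR fit. DESeq2 (adjusted p = 0.00576) and limma-voom with a random sow effect (adjusted p = 0.0271) called it there.

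ZBTB12, a zinc finger transcription factor (27815046 to 27817497), fell from 32.3, 28.02 and 21.8 CPM to 3.74, 4.86 and 7.67 CPM (log2FC -2.29 ± 0.28, adjusted p = 9.13e-05). In -2vs-14 it was a DEG only with the sow as a block (log2FC -0.94 ± 0.26, adjusted p = 0.0685, and 0.0217 with the block). TCF19, a nuclear factor expressed in dividing cells (27271550 to 27275261), fell from 8.47, 13.3 and 12.4 CPM to 4.59, 1.49 and 2.34 CPM (log2FC -2.11 ± 0.30, adjusted p = 0.000228). In both cases every library of 1 d postpartum was below every library of 14 d prepartum. EHMT2, a histone H3 lysine methyltransferase (27819352 to 27834344), was already lower at 2 d prepartum, with 105, 94.3 and 94.1 CPM to begin with, 66.7, 57.2 and 81.7 CPM at that time and 49.8, 54.2 and 59.6 CPM at 1 d postpartum. It was the lower DEG of -2vs-14 (log2FC -0.52 ± 0.12, adjusted p = 0.044), a call lost in 11 of 15 fits that left out a library, and a DEG of +1vs-14 as well (log2FC -0.84 ± 0.13, adjusted p = 0.000305). NRM, a protein of the inner nuclear membrane (26944255 to 26947761), fell from 8.06, 10.6 and 9.26 CPM to 3.23, 2.28 and 3.65 CPM (log2FC -1.60 ± 0.23, adjusted p = 0.000273).

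With ZBTB12, TCF19 and EHMT2, 3 of 11 genes of chromatin and transcription in the region were lower DEG in +1vs-14 and 0 were higher, against 10.4% and 13.3% of all genes, and the median log2FC of the 11 was -0.10. These 11 too were chosen with earlier results of these data known. The bromodomain protein BRD2 was at 365 and 437 CPM (log2FC 0.26, adjusted p = 0.0929).

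SLC44A4, a choline transporter-like protein of epithelia (27834565 to 27853383), fell from 26.6, 25.7 and 31.2 CPM to 8.504, 6.14 and 7.23 CPM (log2FC -1.94 ± 0.34, adjusted p = 0.000795), with no overlap. It lies between EHMT2 and NEU1, so that ZBTB12, EHMT2, SLC44A4 and NEU1 are 4 consecutive members of which the first 3 fell and the last rose. HSD17B8, a mitochondrial dehydrogenase of fatty acid synthesis (29753837 to 29756015), fell from 52.2, 47.1 and 44.9 CPM to 19.4, 39.8 and 32.3 CPM (log2FC -0.64 ± 0.19, adjusted p = 0.018), with the lowest value in sow 1, and its call was lost in 10 of 15 fits that left out a library. It is the neighbour of SLC39A7, which rose.

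The genes of RNA handling and translation held 11 rows. Of these 0 were DEG in +1vs-14 with time only, against 23.7% of all genes. The sow block called 1 higher (PPP1R10, a nuclear targeting subunit of protein phosphatase 1, log2FC 0.36, adjusted p = 0.0177 with the block) and 1 lower (MRPS18B, a mitochondrial ribosomal protein, -0.27, adjusted p = 0.0356). Over all genes the block called 16.3% higher and 13.8% lower. The median log2FC of the 11 rows in +1vs-14 was 0.10. In -2vs-14 GNL1 was a lower DEG only with the sow as a block (log2FC -0.64 ± 0.18, adjusted p = 0.0707, and 0.0321 with the block), 1 of 11 rows against 3.61% of all genes. Of 7 genes of protein folding, traffic and the lysosome 1 (NEU1) was a DEG in -2vs-14 and +1vs-14, and 1 (FKBPL) in +1vs-2. The shares of all genes in these comparisons were 2.85%, 23.7% and 15.3%. BAG6, a chaperone for tail-anchored and misplaced proteins, was at 185 ± 16.8 and 154 ± 5.95 CPM (SD, n = 3; log2FC -0.26 ± 0.09, adjusted p = 0.0332) and failed the overall test of time. ATF6B, a stress sensor of the endoplasmic reticulum, and RNF5, a ubiquitin ligase of its membrane, had log2FCs of 0.01 and -0.06.

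LTB, NFKBIL1 and NOTCH4 were no DEG in +1vs-14. LTB was at 6.14, 4.36 and 4.702 CPM and then at 4.25, 2.38 and 5.11 CPM (log2FC -0.37 ± 0.42, adjusted p = 0.535), NFKBIL1, an inhibitor-like regulator of NF-kB, had a log2FC of -0.16 (adjusted p = 0.569), and NOTCH4, a Notch receptor of endothelium, one of 0.33 (adjusted p = 0.0963). The 6 endothelial markers held 207 to 245 CPM in sum at 14 d prepartum and 154 to 171 CPM at 1 d postpartum, with 2 lower DEG and 0 higher. The 6 stromal markers held 3653 to 6817 CPM and then 1843 to 3577 CPM, with 1 lower and 0 higher (4 lower with the sow as a block, COL6A2, COL3A1, COL6A3 and LUM). Over all genes 10.4% were lower and 13.3% higher, and 13.8% were lower with the sow as a block.

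Larger changes than these were found in members without a symbol. ENSSSCG00000030320 (22302768 to 22306003) rose from 3.8003, 1.17 and 0.0969 CPM at 14 d prepartum to 112, 153 and 30.8 CPM at 2 d prepartum and 486, 72.2 and 143 CPM after parturition, by way of 7.79, 10.9 and 1.16 CPM (10 d) and 22.9, 26.2 and 4.09 CPM (6 d). Within each sow every later prepartum value was above the one before it, sow 2 was lower at 1 d postpartum than at 2 d prepartum, and the libraries of 2 d prepartum and 1 d postpartum were all above those of 14 d. It was a DEG in -2vs-14 (log2FC 5.85 ± 1.16, adjusted p = 0.0206), a call lost in 4 of 15 fits that left out a library. In +1vs-14 it was a DEG as well (log2FC 7.09 ± 1.21, adjusted p = 0.000738). The member before it, ENSSSCG00000001131 (22275360 to 22288678), rose too, from 1.28, 0.838 and 0.727 CPM to 4.45, 3.45 and 2.65 CPM and 10.4, 4.66 and 5.26 CPM (log2FC 2.79 ± 0.44, adjusted p = 0.000419).

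The largest falls among unnamed DEG were those of ENSSSCG00000001473 (29768735 to 29798122), from 9.48, 34.2 and 4.36 CPM to 0.6803, 2.48 and 1.46 CPM (log2FC -3.31 ± 0.83, adjusted p = 0.00806), and of ENSSSCG00000025335 (24117439 to 24120600), from 10.5, 8.88 and 12.4 CPM to 6.29, 6.24 and 5.84 CPM (log2FC -0.79 ± 0.17, adjusted p = 0.00382). The first rests in part on sow 2 at 14 d prepartum, without which (replicate 4) the log2FC was -2.11 and it was no DEG. It was no DEG without replicate 43 of 1 d postpartum either (-3.23). The call of ENSSSCG00000025335 in +1vs-14 was lost in 4 of the 15 fits that left out a library. With the sow as a block both were DEG of -2vs-14 too (adjusted p = 0.00404 for ENSSSCG00000001473 and 0.0456 for ENSSSCG00000025335). Of the other unnamed members 3 were higher DEG in +1vs-14, with log2FCs of 1.56 to 2.41, and 1 was a lower DEG (-0.71). Of the 21 DEG of +1vs-14, 4 also differed between sows, namely SLC44A4 and 3 of these 4 members with an ID.

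At the edge of the filter stood 3 rows that reached 1 CPM in exactly 3 libraries, with mean levels of 0.746 to 0.820 CPM, and 2 rows that reached it in exactly 2, with 0.435 and 0.743 CPM. The last tested gene before the interval starts at 22089319 and the first member at 22161209. The last member ends at 29798122 and the first tested gene beyond the interval starts at 30525284. No member carries the symbol of TAPBP, the class I chaperone tapasin, in the part of the gene list held here, and whether an unnamed member is that gene was not determined.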

How the data were processed

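Mammary biopsies were sequenced as stranded poly(A) libraries on an Illumina HiSeq instrument. Per the study's methods and the file headers, reads were trimmed with Trimmomatic (0.33), aligned to Sscrofa10.2 with STAR (2.5.1b) and counted on the reverse strand with featureCounts (1.5.0). The file headers name an Ensembl release 86 annotation, the methods RefSeq. The values deposited by the authors are raw counts per gene and library, with no normalization.

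Symbols came only from the study's gene list, held here in part, which contains genes inside and outside its threshold. Members and gene lists were chosen with earlier results of these data known, and lists hold only genes with such a symbol. Named members were fixed by role, then by size among DEG whose libraries did not overlap, and unnamed members by the 2 largest changes each way. Genes with at least 1 CPM in at least 3 libraries were tested on the counts with edgeR (4.0.16, R 4.3.3; TMM, quasi-likelihood F test, time as factor, all 15 libraries, Benjamini-Hochberg adjustment over 13503 genes). The test of sow had time as a block. limma (3.58.1) and DESeq2 (1.42.0) gave alternatives. All tests were two-sided, and the fits were tested on simulated data.

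The sow of a library was found by its exact total count in the study's alignment summary (15 of 15 matched 1 entry). As a check of the pairing, deviations from the time means correlated over all genes at 0.396 on average within a sow (30 pairs, lowest 0.103) and at -0.198 between sows (60 pairs), so the sow fit is given beside the members described where it changes their call in -2vs-14 or +1vs-14. Alternatives also covered scaling, filters, the highest genes, RNA integrity and each library left out in turn. Levels are TMM-scaled CPM, and the bins of 1 Mb use gene midpoints. Counts limit precision for members near 1 CPM, where a library holds few reads. No sequences were read, since no genome of this build was used here.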

Additional observations from a re-analysis of the deposited data

How the results depend on the processing

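With the sow as a replicate block, the members called were 14 (-2vs-14), 35 (+1vs-14) and 20 (+1vs-2). limma-voom with a random sow effect called 14 in -2vs-14 (8.19% of all genes). DESeq2 called 16 (-2vs-14, 8.02% of all genes) and 32 (+1vs-14, 30.8%). Library totals without TMM gave 21 and 55 members in these comparisons (10.6% and 42.2% of all genes) and 18 members that differed between sows (5.7%), and turned TRIM39 in +1vs-14 to a log2 fold change of -0.18 (adjusted p = 0.382). With the RNA integrity number as a covariate -2vs-14 and +1vs-14 had 0 and 0 members called and +1vs-2 had 5. Restricted to members at 1 CPM in all 15 libraries, 21 of 97 differed between sows (6.88% of all genes). Leaving out 1 library at a time gave 0 to 0 members for -10vs-14 and 0 to 0 for -6vs-14. It gave 0 to 12 members for -2vs-14, 16 to 29 for +1vs-14, 9 to 20 for +1vs-2 and 16 to 40 that differed between sows. The cause was not tested for any of these shifts. RLE size factors, leaving out the 10 highest genes of any library, and no filter on low counts kept every count of members within 1.5 times. Of 68 single-gene results, the sow block changed the call of 9, all gained, and RLE size factors of 0.

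Depth, with a median total count of 17726719 and the lowest totals at 1 d postpartum, limits members near 1 CPM most, and 3 libraries per time point limit every comparison.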
